A study of Mus musculus with 16 samples.

Results

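The proteasome genes of mouse T cells were followed through 4 groups of cultures. The set was defined by name and not by any measured value: it holds the protein-coding genes whose symbol in the GENCODE M21 annotation begins with Psma, Psmb, Psmc, Psmd, Psme or Psmg, without Psmb8, Psmb9 and pseudogenes. This rule took 47 of the 55401 genes in the deposited tables, and 4 pseudogenes, none above 9.68 expected counts in any library, were left out. By role, 17 members belong to the core particle (8 alpha ring, 9 beta ring) and 17 to the regulatory cap (6 ATPases of its base and 11 other subunits). Another 7 are assembly chaperones (4 for the core, 3 for the cap) and 5 belong to other activators. The remaining member, Psmc3ip, carries a subunit's name but encodes a partner in meiotic recombination, so it is given a role of its own, though the counts over all members include it. The low-count filter was passed by 45 of the 47 members, and the exceptions were Psma8 and Psmb11, the forms of testis and thymus.

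The proteasome degrades proteins that carry ubiquitin. Its core particle is a stack of rings, with alpha subunits that gate the entrance and beta subunits of which some carry the protein-cutting sites, and the regulatory cap binds, unfolds and feeds in the substrate. In T cells, interferon gamma raises exchangeable beta subunits (encoded by Psmb8, Psmb9 and Psmb10) and the activator genes Psme1 and Psme2, and the resulting immunoproteasome makes peptides for presentation to CD8+ T cells. NFE2L1 is a transcription factor that raises proteasome genes when proteasome activity is short.

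The study's methods for CD8+ T cell differentiation describe OT-I cells, which have a transgene for a T cell receptor that recognises a peptide of ovalbumin. These were expanded with that peptide and then kept with IL-2 (TE, effector) or IL-15 (TM, memory). The legend for the study's RNA-seq speaks of splenic T cells, and the sample titles do not name OT-I. Wild-type (WT) cells were compared with cells of TPdh-/- mice, in which CD4-cre, active in T cells, removed a floxed part of Pdha1, the gene of a pyruvate dehydrogenase subunit. Each of the 4 groups held 4 libraries, numbered here from 1 to 4 in WT TE and from 5 to 8 in TPdh-/- TE, and from 9 to 12 and 13 to 16 in TM of the same genotypes. The study's methods name adult mice of both sexes, a B6.129P2 strain for the floxed allele and a B6.Cg strain for CD4-cre, and the labels give no age or sex for a library. The study speaks of separate mice in each condition, in a number that differs from that of the libraries here, and the labels tie no library to an animal. Each p therefore measures the spread between these libraries, of which some may be technical.

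Libraries held 53007257 to 73507566 counts, of which the 47 members took 0.421% to 0.635%. WT TM library 12 and TPdh-/- TE library 5 stood apart from the rest of their groups over all genes, with chi-square per degree of freedom of 53.7 to 70.3 and 23.4 to 61.3 in pairs, and results that rest on them are given with and without them. Pdha1, the targeted gene, read 141 to 160 CPM in TPdh-/- TM and 169 to 194 CPM in WT TM. In TE it read 147 to 156 CPM without and 160.1 to 162 CPM with the intact gene, and the log2 differences were -0.22 in TM (adjusted p = 0.00556) and -0.08 in TE (adjusted p = 0.285). Its count over the whole gene thus stayed close to the WT level and checks the genotype labels only weakly. CPM are counts scaled to library totals that were corrected with TMM factors, in units of 1e6 counts. All 9 CD8 T cell markers were present in every group, with a summed TPM (a value scaled for gene length and to the same total in every library) of 4355 to 6562. Natural killer, macrophage and dendritic cell markers, in contrast, stood at 28.6 to 40.7, 5.73 to 6.62 and 14.8 to 48.1 summed TPM in WT TM and at 102 to 147, 23.7 to 40.1 and 57.01 to 170.4 in TPdh-/- TM. Of the natural killer sum, Eomes alone gave a mean of 26.1 TPM in WT TM (mean sum 33.8). In TPdh-/- TM it gave 30.9 TPM (mean sum 132.5), so the rise came mostly from the other markers on that list.

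Promoters of the members were searched for the core of the antioxidant response element, TGACNNNGC, which NFE2L1 binds together with small MAF proteins, because the RNA of Nfe2l1 differed between genotypes in TE. RefSeq gave a promoter (250 bases before to 50 after the start, GRCm38.p6) for 39 of the 47 members, or 42 promoters in all. The motif stood on either strand in 6 of these 42 (14.3%) and in 12.4% of all 32851 promoters of this length. The 6 genes were Psmb5, Psmb6, Psmc6, Psmd9, Psmd12 and Psme4. Windows around the motif are shown for a catalytic subunit of each of 2 kinds, a cap ATPase and a cap chaperone, in the direction of the gene and with the motif in capitals.
Psmb5: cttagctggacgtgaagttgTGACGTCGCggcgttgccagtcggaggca
Psmb6: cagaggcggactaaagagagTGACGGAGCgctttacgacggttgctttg
Psmc6: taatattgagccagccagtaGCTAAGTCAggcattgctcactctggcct
Psmd9: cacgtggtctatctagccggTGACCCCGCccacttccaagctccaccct
The Psmb5 window lies on the minus strand at chr14:54618014-54618062, with the motif at bases -47 to -39 from the start that RefSeq gives for that promoter. Psmb6 is read from the plus strand at chr11:70525328-70525376 (motif at -9 to -1), Psmc6 from the plus strand at chr14:45329577-45329625 (-227 to -219, matched on the other strand) and Psmd9 from the plus strand at chr5:123228139-123228187 (-31 to -23). For Psmd9 this start lies inside the GENCODE gene, which begins further upstream at base 123169413. A match describes these letters only, and binding was not measured.

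Summed by role, core particle genes were lower in TM in both genotypes and cap genes shifted less, on the TPM scale, which allows sums over genes. Core genes summed to 3345 ± 112 TPM in WT TE and 2561 ± 81.6 in WT TM, and to 3580.2 ± 293 in TPdh-/- TE and 2624 ± 165 in TPdh-/- TM (SD, n = 4 libraries). Ranges of the core sums in TE and TM did not overlap in either genotype. The cap summed to 1786 ± 59.2 TPM in WT TE, 1970.3 ± 154 in TPdh-/- TE, 1681 ± 107 in WT TM and 1574 ± 43.8 in TPdh-/- TM. Other activators had their highest mean sum in TPdh-/- TM, 1099.8 ± 39.9 TPM, against 944 ± 26.9 in WT TM, 932 ± 14.3 in WT TE and 987 ± 73.96 in TPdh-/- TE. Assembly chaperones stayed low in all groups, at 165 ± 7.51 TPM in WT TE and 151 ± 5.07 in WT TM. These sums are a description with no test, and the highest single levels in WT TE were those of Psme2 (509.7 ± 22.3 TPM) and Psmb3 (417 ± 24.7 TPM).

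**Figure D1:**
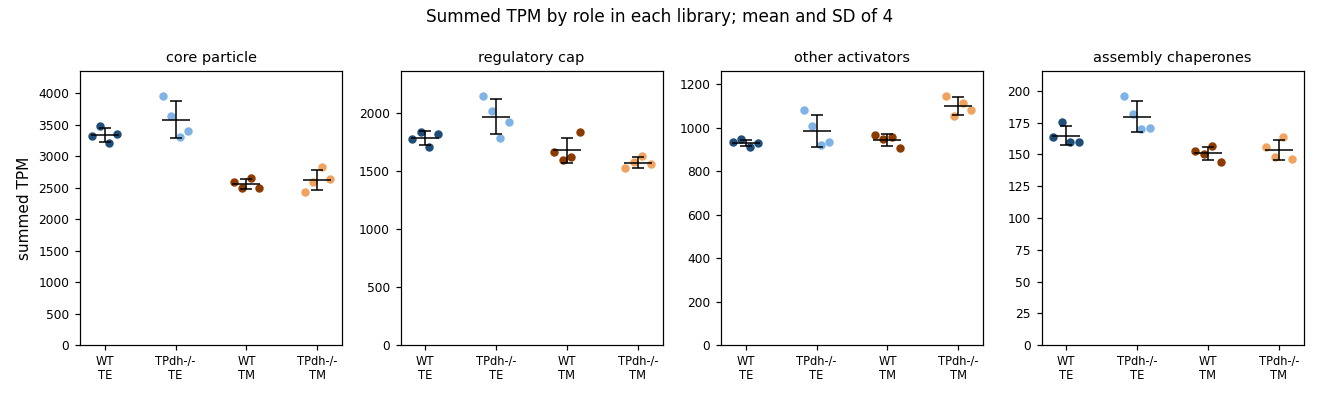
Summed TPM (vertical axis) of core particle, regulatory cap, other activator and assembly chaperone genes in each of the 16 libraries, by group; points are libraries, the black line is the mean and the bar the SD of 4. Core sums of the TM libraries (2437 to 2836) lie below those of the TE libraries (3215 to 3964), and the other activators have their highest mean in TPdh-/- TM (1056 to 1148), a range that overlaps that of TPdh-/- TE (922 to 1082).

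The first comparison asked how proteasome genes differ between memory and effector cultures. In WT cells, 37 of the 45 tested members were lower in TM and 1, Psme3, was higher (adjusted p below 0.05), while 34.3% of the 15277 genes tested were called lower and 34.3% higher. The median member stood 26.7% lower, a log2 fold change of -0.45 against 0.01 over all genes. In TPdh-/- cells 36 members were lower and 0 higher (34.7% and 33.0% of all genes), with a median of -0.42. For that 0, edgeR at an unadjusted p under 0.05 gave 1 member higher, Psme2b, and DESeq2 gave 0, while 4 rose and 34 fell on TPM. Adjusted p values are from edgeR's quasi-likelihood test with Benjamini-Hochberg adjustment over all genes tested, and fold changes are from the same fit.

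All 4 TM libraries lay below all 4 TE libraries for 35 members in WT (32.2% of all genes) and for 32 in TPdh-/- (30.7%). These are bulk cultures, in which fewer cells of a kind and less RNA per cell cannot be told apart. Proliferation markers moved the same way: all 10 were lower in TM in both genotypes, with a summed TPM of 2334 to 2537 in WT TE, 1446 to 1642 in WT TM, 2074 to 2460.1 in TPdh-/- TE and 1099.7 to 1504 in TPdh-/- TM. B and plasma cell markers were higher in TM for 5 of 9 genes in WT (11.0 to 25.5 against 7.58 to 9.17 summed TPM). In TPdh-/- 6 of 9 were higher and 1 was lower (12.5 to 57.02 against 9.58 to 21.2). Natural killer markers were higher in TM for 8 of 9 genes in TPdh-/-, and 3 were higher and 4 lower in WT. The part of these markers in the result was not tested. Member transcripts were also short, with a median of 1247 bases against 2253 for all tested genes, and the trend of log2 values with length put genes of 847 bases at 0.03 to 0.13 in the TE libraries and -0.15 to 0.03 in the TM libraries. With an offset that removed the trend with length from each library, 34 members were lower in WT (median -0.37) and 36 in TPdh-/- (median -0.34). On TPM the median of all genes rose by 0.12 in WT TM, and the members' median lay 0.34 below it, with 27 members called lower and 4 higher.

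**Figure D2:**
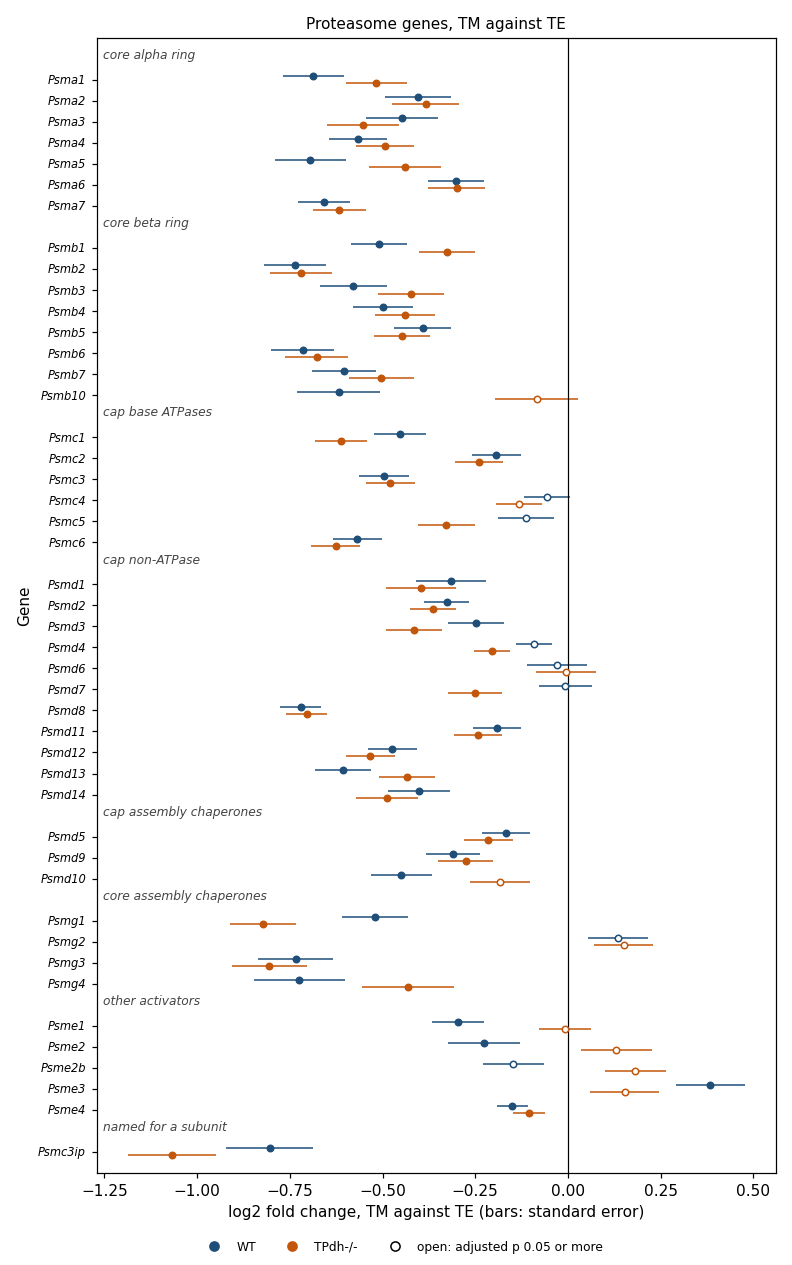
Log2 fold change of TM against TE (horizontal axis) for the 45 tested members, grouped by role, in WT (blue) and TPdh-/- (orange); bars are standard errors, and filled points passed an adjusted p below 0.05. Most points lie left of 0, the core rings between -0.74 and -0.30 in WT, while Psme3 and Psmg2 lie to the right in both genotypes.

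The second comparison asked what the loss of Pdha1 changed within each culture. In TE, 3 members were higher in TPdh-/- (Psmg1, Psma3 and Psmd7) and 4 were lower (Psmd8, Psmg4, Psmd13 and Psmd9), against 17.3% of all genes called higher and 14.3% lower. In TM, 1 member was lower (Psmd8) and 0 were higher, against 7.27% lower and 11.0% higher. For the count of 0, edgeR gave 3 members higher at an unadjusted p under 0.05 (Psmb10, Psme1 and Psme2), and 3 were called by DESeq2 and with upper-quartile factors, against 1 higher and 1 lower on TPM. The median member moved by -0.03 in TE and -0.04 in TM, and no called member changed by more than 0.38 on the log2 scale in either direction.

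In TE, natural killer markers were higher in TPdh-/- for 6 of 9 genes and lower for 1, with overlapping sums (summed TPM 46.3 to 53.1 against 49.1 to 63.7 in WT). Most of each sum was Eomes, with a mean of 43.5 TPM in WT TE and 30.1 TPM in TPdh-/- TE. Macrophage markers were higher there for 5 of 6 tested and lower for 1 (14.8 to 25.4 against 10.2 to 14.3). Dendritic cell markers were higher for 3 of 6 tested and lower for 1 (26.6 to 67.95 against 18.4 to 29.5), while 7 of 9 CD8 T cell markers were lower. In TM, 4 of 9 CD8 T cell markers were lower, and proliferation markers were lower in TPdh-/- for 4 of 10 genes in TE and 5 of 10 in TM. The part of these markers in the genotype calls, among them Psmd8 in both cultures, was not tested. Calls in TE depended on the scale and on single libraries. With TPM in place of counts, 12 members were higher and 0 lower in TPdh-/- TE, where the median of all genes was itself shifted by 0.09 and that of the members by 0.11, and without libraries 12 and 5 the counts were 1 higher and 8 lower. The test of whether the effect of genotype differed between the cultures (TM value minus TE value) was called for 1 member, Psmb10, higher, and for 0 lower (8.05% and 7.51% of all genes). At an unadjusted p under 0.05 edgeR gave 5 members with a positive and 2 with a negative difference, and DESeq2 called 3 positive and 0 negative. On TPM none was positive and 6 were negative, where the median of all genes was itself shifted by -0.12 and that of the members by -0.14.

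**Figure D3:**
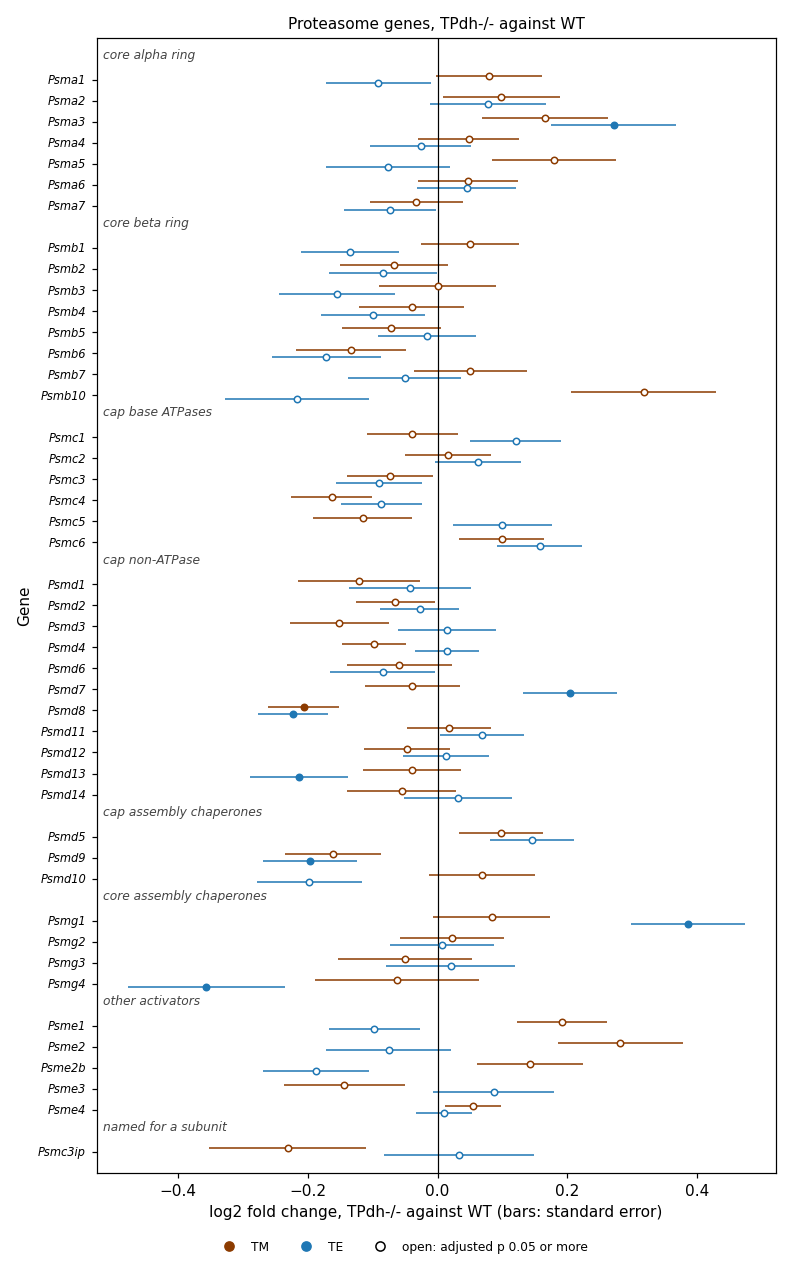
Log2 fold change of TPdh-/- against WT (horizontal axis) for the 45 tested members, grouped by role, in TM (brown) and TE (blue); bars are standard errors, and filled points passed an adjusted p below 0.05. Filled points are Psmd8 in both cultures and Psma3, Psmd7, Psmd13, Psmd9, Psmg1 and Psmg4 in TE alone, and the points of Psmb10, Psme1 and Psme2 lie right of 0 in TM and left of 0 in TE.

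In the alpha ring all 7 tested genes fell in TM in both genotypes (34.3% of all genes in WT and 34.7% in TPdh-/-). The median log2 fold change was -0.57 in WT and -0.49 in TPdh-/-. Psma1, an alpha ring subunit, read 257, 254, 230.1 and 257 CPM in WT TE and 265, 229, 214 and 229 CPM in TPdh-/- TE. Psma1 in TM read 165, 158, 165 and 131 CPM in WT and 145, 164, 175 and 171 CPM in TPdh-/-. Every TM library lay below every TE library of its genotype, and the genotypes overlapped in both cultures. The log2 fold change in TM against TE was -0.69 (SE 0.0818, adjusted p = 9.67e-07) in WT and -0.52 (SE 0.0816, adjusted p = 2.57e-05) in TPdh-/-. Psma7, which is replaced by Psma8 in testis, gave 147, 159, 146 and 142 CPM in WT TE and 161, 143, 129.5 and 132 CPM in TPdh-/- TE. Psma7 in TM gave 93.9, 89.3, 101 and 93.0 CPM in WT and 82.0, 91.4, 99.4 and 95.7 CPM in TPdh-/-. Its TM libraries were again all below the TE libraries, with log2 fold changes of -0.66 (SE 0.0709, adjusted p = 2.95e-07) in WT and -0.62 (SE 0.0709, adjusted p = 6.89e-07) in TPdh-/-. Psma8 itself was barely detected, with 0 to 11 counts and at most 0.41 TPM in any library, and was not tested.

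Psma3 was the alpha ring gene that differed between genotypes. It read 201, 204, 180.2 and 195 CPM in WT TE and 278, 233, 203 and 229 CPM in TPdh-/- TE, where library 7 was at the upper end of the WT range and the other 3 lay above it. Psma3 in TM read 151, 144, 161 and 117 CPM in WT and 143, 159, 167 and 173 CPM in TPdh-/-, which overlapped. Between genotypes the difference was 0.27 (SE 0.0967, adjusted p = 0.0413) in TE and 0.17 (SE 0.097, adjusted p = 0.262) in TM. In TE the call was lost without any 1 of WT TE libraries 1, 2, 3 and 4 or any 1 of TPdh-/- TE libraries 5, 6 and 8 (0.18 to 0.28, adjusted p 0.0615 to 0.153, of 0.00108 to 0.153 over all 16 alternatives). Psma3 fell in TM, with log2 fold changes of -0.45 (SE 0.0971, adjusted p = 0.000549) in WT and -0.55 (SE 0.097, adjusted p = 7.57e-05) in TPdh-/-, with no overlap of libraries. The remaining Psma2, Psma4, Psma5 and Psma6 fell in TM, from -0.69 (Psma5) to -0.30 (Psma6) in WT and from -0.49 (Psma4) to -0.30 (Psma6) in TPdh-/-, and none of them was called between genotypes.

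In the beta ring all 8 tested genes fell in WT TM and 7 of the 8 in TPdh-/- TM (34.3% and 34.7% of all genes). The medians were -0.59 and -0.44. Of the 3 genes for the standard cutting sites, Psmb5 encodes the chymotrypsin-like, Psmb6 the caspase-like and Psmb7 the trypsin-like subunit. Psmb5 read 52.6, 54.1, 52.7 and 51.3 CPM in WT TE and 55.4, 54.3, 48.5 and 50.2 CPM in TPdh-/- TE. Psmb5 in TM read 40.8, 39.3, 44.7 and 35.8 CPM in WT and 33.3, 38.9, 43.4 and 37.2 CPM in TPdh-/-. The cultures were separate and the genotypes overlapped, with -0.39 (SE 0.0762, adjusted p = 0.000202) for TM against TE in WT and -0.45 (SE 0.0762, adjusted p = 5.65e-05) in TPdh-/-. Psmb6 read 102, 114, 109.8 and 106 CPM in WT TE and 101, 98.6, 93.2 and 91.4 CPM in TPdh-/- TE. Psmb6 in TM read 65.7, 59.8, 72.5 and 65.4 CPM in WT and 51.3, 56.98, 73.1 and 58.8 CPM in TPdh-/-. All 4 TPdh-/- TE libraries were below all 4 WT TE libraries (as for 16.6% of all genes), though the genotype effect was not called (-0.17, SE 0.0839, adjusted p = 0.133). The fall in TM was -0.72 (SE 0.0846, adjusted p = 8.92e-07) in WT and -0.68 (SE 0.0847, adjusted p = 1.86e-06) in TPdh-/-. Psmb7 read 154, 152, 139.7 and 154 CPM in WT TE and 169, 142, 130.0 and 138 CPM in TPdh-/- TE. Psmb7 in TM read 103, 99.6, 106 and 85.1 CPM in WT and 87.1, 104, 109 and 108 CPM in TPdh-/-. It too was lower in every TM library, with -0.60 (SE 0.087, adjusted p = 8.77e-06) in WT and -0.50 (SE 0.0869, adjusted p = 6.54e-05) in TPdh-/-.

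Among the beta subunits without a cutting site, Psmb2 had the largest fall in WT. Psmb2 read 121, 132, 132 and 125 CPM in WT TE and 133, 125, 118 and 105 CPM in TPdh-/- TE. Psmb2 in TM read 75.7, 67.2, 86.1 and 77.3 CPM in WT and 66.4, 69.4, 83.4 and 73.0 CPM in TPdh-/-. TM libraries were 40.0% below TE libraries in WT on the fitted scale, -0.74 (SE 0.0835, adjusted p = 5.33e-07), and 39.3% below in TPdh-/-, -0.72 (SE 0.0835, adjusted p = 7.65e-07). Psmb1, Psmb3 and Psmb4 fell, from -0.58 (Psmb3) to -0.50 (Psmb4) in WT and from -0.44 (Psmb4) to -0.33 (Psmb1) in TPdh-/-. Psmb11, the thymus form of Psmb5, held 0 to 8 counts in a library and was not tested.

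Psmb10, the member that interferon gamma raises to take the place of Psmb7, was the only member whose genotype effect was called as different between cultures. It lies on chromosome 8 (chr8:105935735-105938444, GRCm38, minus strand). Psmb10 read 92.1, 106, 104 and 95.2 CPM in WT TE and 91.2, 89.2, 89.9 and 71.5 CPM in TPdh-/- TE. Psmb10 in TM read 66.5, 53.98, 73.9 and 64.4 CPM in WT and 73.1, 68.2, 99.7 and 81.4 CPM in TPdh-/-. TPdh-/- libraries were thus all lower than WT libraries in TE, narrowly, and higher or level in TM, where libraries 13 and 14 lay within the WT range and libraries 15 and 16 above it. The genotype effect was -0.22 (SE 0.111, adjusted p = 0.152) in TE and 0.32 (SE 0.112, adjusted p = 0.058) in TM, and neither passed. Their difference was 0.53 (SE 0.157, adjusted p = 0.0286), a fold of 1.45. In WT the gene fell in TM, at -0.62 (SE 0.112, adjusted p = 9.91e-05), with no overlap of libraries, and in TPdh-/- the value was -0.08 (SE 0.111, adjusted p = 0.516), with an interval of -0.30 to 0.13.

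The difference for Psmb10 had an adjusted p of 0.0527 without WT TE library 2 (0.51), 0.0566 without WT TM library 10 (0.46), 0.0511 without TPdh-/- TM library 15 (0.43) and 0.0908 on TPM (0.39), the 4 of its 23 alternatives that lost the call. The genotype effect in TM passed in 5 of 16 alternatives (adjusted p 0.0252 to 0.193 over all 16), with DESeq2, upper-quartile factors, length-corrected offsets and without WT TM library 11 (0.39, adjusted p = 0.0298) or TPdh-/- TM library 14 (0.39, adjusted p = 0.0252). As a balance of the exchangeable pair, the TPM ratio of Psmb10 to Psmb7 was 0.615 ± 0.0558 in WT TE, 0.548 ± 0.0731 in TPdh-/- TE, 0.599 ± 0.0805 in WT TM and 0.728 ± 0.0977 in TPdh-/- TM (SD, n = 4). Over 4 exact 2-sided permutation tests the adjusted p was 0.229 for genotype in TM, 0.229 for genotype in TE, 0.714 for TM against TE in WT and 0.229 for TM against TE in TPdh-/-. The smallest unadjusted p was 0.0571, where 4 against 4 libraries allow 0.0286. After adjustment over 4 tests, a single comparison at that lowest value would still not pass 0.05. These tests therefore cannot decide whether the ratio moved in 1 comparison alone. Natural killer markers were higher in TPdh-/- TM for 8 of 9 genes, and macrophage and dendritic cell markers for all 6 tested of the 9 on each list, with none of the 27 markers at 0 in all libraries of a TM group. Their part in the result was not tested.

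**Figure D4:**
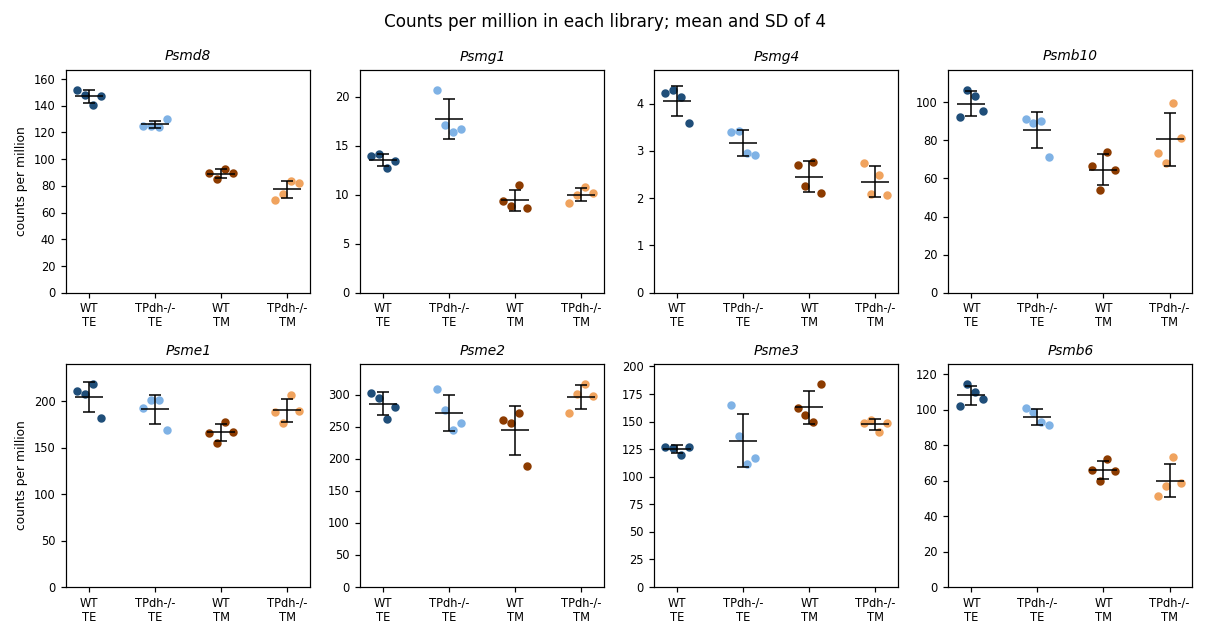
CPM (vertical axis, from 0) of 8 members in each of the 16 libraries by group; points are libraries, the black line is the mean and the bar the SD of 4. Psmd8 and Psmb6 step down from TE to TM, Psmg1 is highest in TPdh-/- TE (16.4 to 20.7), and Psmb10, Psme1 and Psme2 have higher means in TPdh-/- TM than in WT TM.

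The 6 ATPases of the cap base unfold the substrate. In TM 4 of them were lower in WT and 5 in TPdh-/- (34.3% and 34.7% of all genes). Psmc6 read 183, 170.4, 171 and 174 CPM in WT TE and 209, 192, 177 and 201 CPM in TPdh-/- TE. Psmc6 in TM read 119.9, 119, 126 and 106 CPM in WT and 113, 125, 132 and 135 CPM in TPdh-/-. TM and TE did not overlap, and the fall was -0.57 (SE 0.0657, adjusted p = 6.84e-07) in WT and -0.63 (SE 0.0657, adjusted p = 2.29e-07) in TPdh-/-. Psmc1 read 189, 194, 181 and 189.9 CPM in WT TE and 226, 209, 177 and 206 CPM in TPdh-/- TE. Psmc1 in TM read 141, 131, 141 and 138 CPM in WT and 117, 135, 139 and 145 CPM in TPdh-/-. Again the cultures were separate, with -0.45 (SE 0.0703, adjusted p = 2.05e-05) in WT and -0.61 (SE 0.0704, adjusted p = 7.01e-07) in TPdh-/-. Psmc2 and Psmc3 fell in both genotypes (-0.19 and -0.50 in WT), Psmc5 fell in TPdh-/- alone among the calls (-0.33, against -0.11 in WT), and Psmc4 passed in neither (-0.06 and -0.13). For Psmc5 the test of the difference between genotypes did not pass (-0.21, adjusted p = 0.196), and no base ATPase was called between genotypes in the main fit. In TE, Psmc6 was called higher in TPdh-/- in 4 of 16 alternatives and Psmc1 in 2. For both genes these included TPM and the fit without TPdh-/- TE library 7.

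The 11 other cap subunits fell for 8 genes in WT and 10 in TPdh-/- (34.3% and 34.7% of all genes), with medians of -0.32 and -0.40. Psmd8, a subunit of the lid, is on chromosome 7 (chr7:29174188-29180701, GRCm38, minus strand) and had the smallest adjusted p of all members in 3 of the 4 comparisons between groups. Psmd8 read 152, 148, 141 and 148 CPM in WT TE and 125, 125, 124 and 129.9 CPM in TPdh-/- TE. Psmd8 in TM read 89.5, 84.9, 92.9 and 89.6 CPM in WT and 69.7, 74.01, 83.3 and 82.4 CPM in TPdh-/-. No ranges overlapped: in each culture every TPdh-/- library was below every WT library (16.6% of all genes in TE and 8.78% in TM), and in each genotype every TM library was below every TE library. The genotype effect was -0.22 (SE 0.0541, adjusted p = 0.00473) in TE and -0.21 (SE 0.0545, adjusted p = 0.0137) in TM, and their difference was 0.02 (SE 0.0767, adjusted p = 0.921). TM against TE gave -0.72 (SE 0.0544, adjusted p = 3.78e-09) in WT and -0.70 (SE 0.0545, adjusted p = 5.99e-09) in TPdh-/-. The genotype call in TM was lost only in the fit of the 8 TM libraries alone (-0.20, adjusted p = 0.0567, of adjusted p 0.00138 to 0.0567 over all 16), and that in TE only on TPM (-0.08, adjusted p = 0.304, of adjusted p 0.000193 to 0.304 over all 16).

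Psmd7 and Psmd13 were the other subunits of the lid called between genotypes in TE. Psmd7, which pairs with the deubiquitinating subunit Psmd14, read 75.8, 74.6, 71.3 and 73.0 CPM in WT TE and 98.2, 86.7, 73.1 and 81.7 CPM in TPdh-/- TE. Psmd7 in TM read 71.4, 70.3, 73.2 and 78.5 CPM in WT and 66.5, 70.5, 77.9 and 70.7 CPM in TPdh-/-. The TPdh-/- TE libraries were higher except for library 7, which lay within the WT range, and the effect in TE was 0.20 (SE 0.0725, adjusted p = 0.04). There the call was lost without any 1 of WT TE libraries 1, 2, 3 and 4 or any 1 of TPdh-/- TE libraries 5, 6 and 8 (0.13 to 0.21, adjusted p 0.0545 to 0.148, of 0.00596 to 0.148 over all 16 alternatives), and without libraries 12 and 5 it was 0.13 (adjusted p = 0.111). TM against TE it read -0.01 (SE 0.0726, adjusted p = 0.941) in WT and -0.25 (SE 0.0725, adjusted p = 0.00563) in TPdh-/-. Psmd13, whose exons overlap those of Sirt3 so that reads may be shared, read 175, 182, 167 and 179.8 CPM in WT TE and 164, 155, 143 and 145 CPM in TPdh-/- TE. Psmd13 in TM read 118, 111, 121 and 112 CPM in WT and 92.2, 112, 126 and 119 CPM in TPdh-/-. All TPdh-/- TE libraries were below the WT TE libraries, and the effect was -0.21 (SE 0.0754, adjusted p = 0.0394) in TE. In TE the call was lost without any 1 of WT TE libraries 1, 2 and 4 or any 1 of TPdh-/- TE libraries 7 and 8 (-0.23 to -0.19, adjusted p 0.0541 to 0.0804, of 0.0184 to 0.655 over all 16 alternatives), and on TPM it was -0.05 (adjusted p = 0.655). It fell in TM, at -0.61 (SE 0.0758, adjusted p = 1.67e-06) in WT and -0.43 (SE 0.0757, adjusted p = 7.3e-05) in TPdh-/-.

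Psmd4, which binds ubiquitin chains, and Psmd14, which removes them, were not called between genotypes. Psmd4 read 103, 103, 105 and 108 CPM in WT TE and 109, 106, 99.96 and 108 CPM in TPdh-/- TE. Psmd4 in TM read 99.2, 92.1, 101 and 100.1 CPM in WT and 86.3, 90.5, 99.3 and 90.8 CPM in TPdh-/-. TM libraries were below TE libraries in both genotypes, by small amounts, -0.09 (SE 0.0494, adjusted p = 0.108) in WT, which did not pass, and -0.20 (SE 0.0495, adjusted p = 0.00145) in TPdh-/-. On TPM the mean in WT was higher in TM, 121.1 ± 11.0 against 110.6 ± 5.18 in TE, and the call in TPdh-/- was lost. Psmd14 read 154, 158, 157 and 149.7 CPM in WT TE and 181, 156, 149 and 147 CPM in TPdh-/- TE. Psmd14 in TM read 125, 114, 127 and 102 CPM in WT and 95.8, 115, 125 and 116 CPM in TPdh-/-. It fell in TM without overlap, at -0.40 (SE 0.0836, adjusted p = 0.000393) in WT and -0.49 (SE 0.0836, adjusted p = 6.06e-05) in TPdh-/-. Of the other cap subunits, Psmd1, Psmd2, Psmd3, Psmd11 and Psmd12 fell in both genotypes, from -0.47 (Psmd12) to -0.19 (Psmd11) in WT. Psmd6 passed in neither (-0.03 and 0.00, with intervals of -0.19 to 0.13 and -0.16 to 0.15).

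The chaperones that assemble the cap base, Psmd5, Psmd9 and Psmd10, are not part of the finished particle. Psmd5 read 52.3, 51.9, 47.3 and 49.7 CPM in WT TE and 59.1, 55.5, 50.3 and 57.8 CPM in TPdh-/- TE. Psmd5 in TM read 45.2, 45.5, 47.6 and 40.9 CPM in WT and 43.8, 48.1, 47.6 and 52.4 CPM in TPdh-/-. Its cultures overlapped by 1 library in each genotype, and the fall in TM was -0.17 (SE 0.0653, adjusted p = 0.0313) in WT and -0.21 (SE 0.0651, adjusted p = 0.0076) in TPdh-/-. In WT the call was lost without any 1 of WT TE libraries 1 and 2 or WT TM library 12 (-0.16 to -0.13, adjusted p 0.0694 to 0.0865, of 0.0045 to 0.0865 over all 16 alternatives). Psmd9 read 14.8, 15.5, 14.3 and 14.1 CPM in WT TE and 12.1, 13.1, 12.9 and 13.1 CPM in TPdh-/- TE. Psmd9 in TM read 11.3, 11.496, 12.5 and 11.9 CPM in WT and 9.97, 9.28, 11.9 and 11.1 CPM in TPdh-/-. TPdh-/- TE libraries were all below WT TE libraries, -0.20 (SE 0.0728, adjusted p = 0.0486), and in TM the value was -0.16 (SE 0.0738, adjusted p = 0.144). In TE the call was lost without any 1 of WT TE libraries 1, 2 and 3 or any 1 of TPdh-/- TE libraries 5, 6, 7 and 8 (-0.22 to -0.17, adjusted p 0.0532 to 0.11, of 0.0195 to 0.712 over all 16 alternatives), and on TPM it was -0.04 (adjusted p = 0.712). TM was below TE, at -0.31 (SE 0.0731, adjusted p = 0.00112) in WT and -0.28 (SE 0.0735, adjusted p = 0.00305) in TPdh-/-. Psmd10 read 40.8, 43.7, 37.6 and 40.2 CPM in WT TE and 38.1, 33.8, 34.1 and 35.6 CPM in TPdh-/- TE. Psmd10 in TM read 32.4, 29.6, 31.9 and 24.9 CPM in WT and 27.1, 32.1, 33.0 and 32.4 CPM in TPdh-/-. It fell in TM in WT (-0.45, SE 0.0812, adjusted p = 0.0001) and not past the threshold in TPdh-/- (-0.18, SE 0.0812, adjusted p = 0.0547), and the difference between them did not pass (0.27, SE 0.115, adjusted p = 0.13). The fall in TPdh-/- passed in 4 alternatives, DESeq2 among them. Between genotypes in TE, Psmd10 was not called in the main fit (-0.20) and was called lower in TPdh-/- in 4 alternatives.

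The core assembly chaperones Psmg1 to Psmg4 work in pairs on the alpha ring, Psmg1 with Psmg2 and Psmg3 with Psmg4. Psmg1 (chr16:95979933-95990960, GRCm38, minus strand) read 13.96, 14.2, 12.7 and 13.4 CPM in WT TE and 20.7, 17.1, 16.4 and 16.7 CPM in TPdh-/- TE. Psmg1 in TM read 9.34, 8.81, 11.0 and 8.69 CPM in WT and 9.15, 9.95, 10.8 and 10.2 CPM in TPdh-/-. Every TPdh-/- TE library exceeded every WT TE library (16.5% of all genes), library 5 by the most, and the TM groups overlapped. TPdh-/- against WT gave 0.38 (SE 0.0878, adjusted p = 0.00302) in TE and 0.08 (SE 0.0902, adjusted p = 0.577) in TM. The call in TE held under all 16 alternatives, with log2 fold changes of 0.30 to 0.50, among them 0.32 (adjusted p = 0.0107) without library 5. The effects in the cultures did not differ past the threshold (-0.30, SE 0.126, adjusted p = 0.117). Psmg1 fell in TM, at -0.52 (SE 0.0895, adjusted p = 5.94e-05) in WT and -0.82 (SE 0.089, adjusted p = 3.38e-07) in TPdh-/-.

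Psmg2, its partner, was the core chaperone not called in any comparison. Psmg2 read 26.5, 28.7, 26.7 and 26.5 CPM in WT TE and 31.8, 27.5, 25.5 and 24.2 CPM in TPdh-/- TE. Psmg2 in TM read 30.2, 30.7, 32.2 and 26.1 CPM in WT and 28.9, 29.5, 32.7 and 29.8 CPM in TPdh-/-. All groups overlapped, and TM against TE gave 0.13 (SE 0.0799, adjusted p = 0.143) in WT and 0.15 (SE 0.0798, adjusted p = 0.105) in TPdh-/-, neither past the threshold, though both passed with length-corrected offsets, on TPM and without libraries 12 and 5. Without library 12 alone the value in WT was 0.19 (adjusted p = 0.0384), and without library 5 alone that in TPdh-/- was 0.23 (adjusted p = 0.00914). Psmg3 read 10.9, 12.2, 11.3 and 10.7 CPM in WT TE and 12.5, 12.4, 10.5 and 10.2 CPM in TPdh-/- TE. Psmg3 in TM read 7.32, 6.29, 7.44 and 6.02 CPM in WT and 6.31, 6.01, 7.77 and 6.03 CPM in TPdh-/-. TM and TE were separate, -0.73 (SE 0.102, adjusted p = 5.58e-06) in WT and -0.81 (SE 0.102, adjusted p = 2.08e-06) in TPdh-/-. Psmg4, the lowest tested member in CPM, read 4.22, 4.29, 4.14 and 3.59 CPM in WT TE and 3.39, 3.42, 2.96 and 2.90 CPM in TPdh-/- TE. Psmg4 in TM read 2.698, 2.26, 2.76 and 2.10 CPM in WT and 2.75, 2.08, 2.49 and 2.08 CPM in TPdh-/-. All TPdh-/- TE libraries were below the WT TE libraries, -0.36 (SE 0.121, adjusted p = 0.0336), and in TM the genotypes overlapped, -0.06 (SE 0.126, adjusted p = 0.786). In TE the call was lost without any 1 of WT TE libraries 1, 2 and 3 or any 1 of TPdh-/- TE libraries 7 and 8 (-0.36 to -0.33, adjusted p 0.0634 to 0.0778, of 0.0141 to 0.144 over all 16 alternatives), and with length-corrected offsets it was -0.23 (adjusted p = 0.144). TM lay below TE, at -0.72 (SE 0.123, adjusted p = 5.41e-05) in WT and -0.43 (SE 0.124, adjusted p = 0.00543) in TPdh-/-.

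Of the 5 other activators 3 fell and 1 rose in WT TM (34.3% and 34.3% of all genes), and 1 fell in TPdh-/- TM (34.7%). Nothing particular to this role is read from these counts. Psme1 and Psme2 encode the partners of the activator that interferon gamma raises. Psme1 (chr14:55578123-55581529, GRCm38) read 211, 208, 219 and 182 CPM in WT TE and 193, 202, 202 and 169 CPM in TPdh-/- TE. Psme1 in TM read 166, 155, 178 and 167 CPM in WT and 188, 177, 206 and 189 CPM in TPdh-/-. In TM 3 of the 4 TPdh-/- libraries lay above all WT libraries and library 14 within their range. The genotype effect was 0.19 (SE 0.0697, adjusted p = 0.0668) in TM and -0.10 (SE 0.0696, adjusted p = 0.315) in TE, and their difference was 0.29 (SE 0.0985, adjusted p = 0.0562). None of these passed. The effect in TM passed in 5 of 16 alternatives (adjusted p 0.0406 to 0.164 over all 16) and the difference in 6 of 23 alternatives (adjusted p 0.0193 to 0.249 over all 23), DESeq2 among them. TM against TE gave -0.30 (SE 0.0697, adjusted p = 0.00111) in WT and -0.01 (SE 0.0696, adjusted p = 0.921) in TPdh-/-, and in WT -0.05 on TPM (adjusted p = 0.456).

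Psme2 (chr14:55587441-55591113, GRCm38) read 303, 295, 263 and 281 CPM in WT TE and 308, 276, 244 and 257 CPM in TPdh-/- TE. Psme2 in TM read 261, 256, 272 and 189 CPM in WT, where library 12 stood low, and 271, 301, 316 and 299 CPM in TPdh-/-. TPdh-/- TM libraries were above the WT TM libraries except for library 13, which lay just under library 11. The genotype effect was 0.28 (SE 0.0965, adjusted p = 0.0516) in TM and -0.08 (SE 0.0964, adjusted p = 0.595) in TE, with a difference of 0.36 (SE 0.136, adjusted p = 0.0878). The effect in TM passed in 7 of 16 alternatives (adjusted p 0.0149 to 0.121 over all 16) and the difference in 3 of 23 (adjusted p 0.0222 to 0.143 over all 23), and without library 12 the effect in TM was 0.18 (adjusted p = 0.121). In WT the value of TM against TE was -0.23 (SE 0.0965, adjusted p = 0.0462), and the call was lost without any 1 of WT TE libraries 1, 2 and 4 or any 1 of WT TM libraries 10 and 12 (-0.25 to -0.13, adjusted p 0.0521 to 0.14, of 0.0201 to 0.624 over all 16 alternatives). In TPdh-/- it was 0.13 (SE 0.0964, adjusted p = 0.241). Psme2b, a near copy of Psme2 to which reads may be misassigned, followed it in value (genotype effect 0.14 in TM and -0.19 in TE, neither called). In TM, the natural killer, macrophage and dendritic cell marker sums were also higher in TPdh-/- than in WT. Their part in the values of Psme1, Psme2 and Psme2b was not tested.

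Psme3 encodes a nuclear activator and was the 1 member that rose in WT TM. Psme3 (chr11:101316213-101323537, GRCm38) read 127, 126, 119.7 and 127 CPM in WT TE and 165, 137, 112 and 117 CPM in TPdh-/- TE. Psme3 in TM read 163, 156, 149 and 184 CPM in WT and 149, 151, 141 and 149 CPM in TPdh-/-. Every WT TM library was above every WT TE library (31.7% of all genes), while in TPdh-/- library 5 of TE lay above all TM libraries. TM against TE gave 0.38 (SE 0.0931, adjusted p = 0.00146) in WT and 0.15 (SE 0.093, adjusted p = 0.154) in TPdh-/-, and the difference between genotypes did not pass (-0.23, SE 0.131, adjusted p = 0.263). Without library 5 the value in TPdh-/- was 0.27 (adjusted p = 0.00317), and the call in WT held under all 16 alternatives. Psme4, another nuclear activator, read 124, 122, 124 and 123 CPM in WT TE and 125, 124, 116 and 132 CPM in TPdh-/- TE. Psme4 in TM read 109.9, 114, 112 and 108 CPM in WT and 114, 115, 113 and 119.7 CPM in TPdh-/-. The shift was small, -0.15 (SE 0.0431, adjusted p = 0.00522) in WT and -0.11 (SE 0.043, adjusted p = 0.0391) in TPdh-/-, and on TPM it turned to 0.06 in WT (adjusted p = 0.309). In TPdh-/- the call was lost without any 1 of TPdh-/- TE libraries 5, 6 and 8 or any 1 of TPdh-/- TM libraries 13, 14 and 15 (-0.10 to -0.07, adjusted p 0.0594 to 0.171, of 2e-05 to 0.195 over all 16 alternatives).

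Psmc3ip, the recombination factor that only shares a subunit's name, had the largest shift between cultures of all 45. Psmc3ip read 8.50, 10.5, 8.87 and 9.32 CPM in WT TE and 10.1, 10.6, 9.04 and 8.21 CPM in TPdh-/- TE. Psmc3ip in TM read 5.40, 4.35, 6.11 and 5.40 CPM in WT and 3.92, 4.59, 5.36 and 4.24 CPM in TPdh-/-. TM libraries were below TE libraries by 42.7% in WT (-0.80, SE 0.118, adjusted p = 1.08e-05) and by 52.3% in TPdh-/- (-1.07, SE 0.119, adjusted p = 4.79e-07), with no overlap. For genotype the values were -0.23 (SE 0.121, adjusted p = 0.203) in TM and 0.03 (SE 0.115, adjusted p = 0.855) in TE.

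Proteasome genes outside the naming rule were taken from a fixed list of 15 parts and partners, of which 14 were tested. In TM against TE, 11 fell and 2 rose in WT (34.3% and 34.3% of all genes). In TPdh-/- 11 fell and 1 rose (34.7% and 33.0%), and the medians of the list were -0.41 in WT and -0.31 in TPdh-/-. Pomp, the chaperone that matures the core, read 181, 169, 159 and 167 CPM in WT TE, 125, 117, 128 and 94.997 CPM in WT TM and 104, 125, 136 and 130.5 CPM in TPdh-/- TM. It fell in TM, at -0.54 (SE 0.0911, adjusted p = 5.17e-05) in WT and -0.28 (SE 0.0909, adjusted p = 0.011) in TPdh-/-. Ecpas, a scaffold that holds cap and core together, read 115, 112, 116 and 117 CPM in WT TM and 136, 139, 132 and 138 CPM in TPdh-/- TM, and 157, 156, 152 and 156 CPM against 198, 189.5, 169.7 and 184 CPM in TE. All TPdh-/- libraries were above all WT libraries of their culture, 0.24 (SE 0.0456, adjusted p = 0.0012) in TM and 0.25 (SE 0.0455, adjusted p = 0.000421) in TE, and on TPM the value in TM was 0.22 (adjusted p = 0.141). Txnl1 and the deubiquitinase Uchl5 fell in TM in both genotypes (-0.63 and -0.62 in TPdh-/-).

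The exchangeable subunits left out by the rule had a genotype effect in TM of the same sign as that of Psmb10. Psmb8, which replaces Psmb5, read 227, 218, 239 and 224 CPM in WT TM and 244, 253, 299 and 271 CPM in TPdh-/- TM, with no overlap. Psmb8 in TE read 389, 375, 357 and 371 CPM in WT and 351, 347, 309.7 and 340.5 CPM in TPdh-/-. TPdh-/- against WT gave 0.23 (SE 0.0615, adjusted p = 0.0135) in TM and -0.15 (SE 0.0614, adjusted p = 0.0804) in TE, and the difference was 0.38 (SE 0.0869, adjusted p = 0.00653). Psmb9, which replaces Psmb6, read 97.0, 89.7, 103 and 91.0 CPM in WT TM and 109, 102, 123 and 117 CPM in TPdh-/- TM. Psmb9 in TE read 156, 162, 157 and 149 CPM in WT and 149, 158, 152 and 147 CPM in TPdh-/-. Library 14 was within the WT TM range and the other 3 TPdh-/- libraries were above it, 0.24 (SE 0.0595, adjusted p = 0.0085) in TM against -0.04 (SE 0.0592, adjusted p = 0.619) in TE, and the difference was 0.29 (SE 0.084, adjusted p = 0.028). Both differences missed the threshold on TPM (0.18, adjusted p = 0.236, and 0.13, adjusted p = 0.221), and that of Psmb9 also without WT TM library 10 (0.26, adjusted p = 0.0604).

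Another fixed list held 8 genes of the interferon gamma response and peptide loading. In TPdh-/- TM 5 were higher and 0 lower (11.0% and 7.27% of all genes). In TPdh-/- TE 1, Nlrc5, was higher (17.3% of all genes), and nothing particular to the list is read from that count. Irf1, a transcription factor induced by interferon gamma, read 156, 158, 161 and 164 CPM in WT TM and 308, 259, 291 and 329 CPM in TPdh-/- TM. Irf1 in TE read 161, 150.3, 133 and 135 CPM in WT and 136, 129.8, 134 and 122 CPM in TPdh-/-. The TM groups were far apart and the TE groups overlapped, 0.89 (SE 0.0707, adjusted p = 1.94e-07) in TM and -0.15 (SE 0.0704, adjusted p = 0.111) in TE. Nlrc5, which controls class I genes, gave 0.29 (SE 0.0543, adjusted p = 0.000945) in TM and 0.18 (SE 0.0543, adjusted p = 0.0201) in TE. Irf1 and Tapbp were among the 5 of 8 whose effect was larger in TM than in TE by the test of the difference (1.05 and 0.39). Over all genes 8.05% were called so. In TM against TE, the peptide transporter genes Tap1 and Tap2 fell in WT (-0.76 and -0.83), and Erap1, which trims peptides, rose in TPdh-/- (0.58).

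Nfe2l1 and 7 genes of its control of proteasome genes formed another list, on which 3 were higher and 1 lower in TPdh-/- TE, and 1 was higher and 1 lower in TPdh-/- TM. Over all genes the shares were 17.3% and 14.3% in TE and 11.0% and 7.27% in TM, and nothing particular to the list is read from these counts. Nfe2l1 read 46.4, 53.4, 53.2 and 52.99 CPM in WT TE and 79.1, 81.0, 73.3 and 80.6 CPM in TPdh-/- TE. Nfe2l1 in TM read 53.4, 49.1, 49.4 and 71.0 CPM in WT, with library 12 high, and 54.9, 52.9, 50.9 and 47.9 CPM in TPdh-/-. The TE groups were separate and the TM groups overlapped, 0.61 (SE 0.0935, adjusted p = 0.000101) in TE and -0.11 (SE 0.0937, adjusted p = 0.455) in TM, and the difference was -0.72 (SE 0.132, adjusted p = 0.00129). Nfe2l2, a related factor, read 43.1, 39.4, 41.5 and 41.8 CPM in WT TE and 57.7, 52.4, 50.1 and 57.6 CPM in TPdh-/- TE. It too was higher in TPdh-/- TE, 0.39 (SE 0.0556, adjusted p = 4.46e-05), with 0.11 (SE 0.0558, adjusted p = 0.2) in TM. Of the small MAF partners, Mafg was higher in TPdh-/- in both cultures (0.35 in TE and 0.25 in TM), Mafk was lower in TPdh-/- TM (-0.30), and Maff fell in TM in both genotypes (-1.60 in WT). The 6 members whose promoter held the motif did not share a direction in TE: Psmd9 was called lower, and Psmb5 (-0.02), Psmb6 (-0.17), Psmc6 (0.16), Psmd12 (0.01) and Psme4 (0.01) were not called. These calls depended on the processing. That of Psmd9 was lost in 11 of 16 alternatives. Psmc6 was called higher in 4, TPM among them, Psme4 higher on TPM, and Psmb6 lower in the fit of only the groups compared. On TPM the median of all genes was itself shifted by 0.09.

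Of 13 ubiquitin genes and shuttle factors, 4 rose and 5 fell in WT TM, 2 rose and 5 fell in TPdh-/- TM (34.3% and 34.3% of all genes in WT, 33.0% and 34.7% in TPdh-/-), and nothing particular to the list is read from these counts. Between genotypes, Ubqln4 was higher in TPdh-/- TE (0.32). Vcp, the ATPase that pulls substrates out of complexes, fell in TM in both genotypes (-0.37 in WT and -0.47 in TPdh-/-), while the shuttle gene Ubqln2 (0.32 and 0.37) and the Vcp partner Ufd1 (0.16 and 0.28) rose. In TM none of the 13 was called between genotypes, where edgeR gave 3 at an unadjusted p under 0.05.

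**Figure D5:**
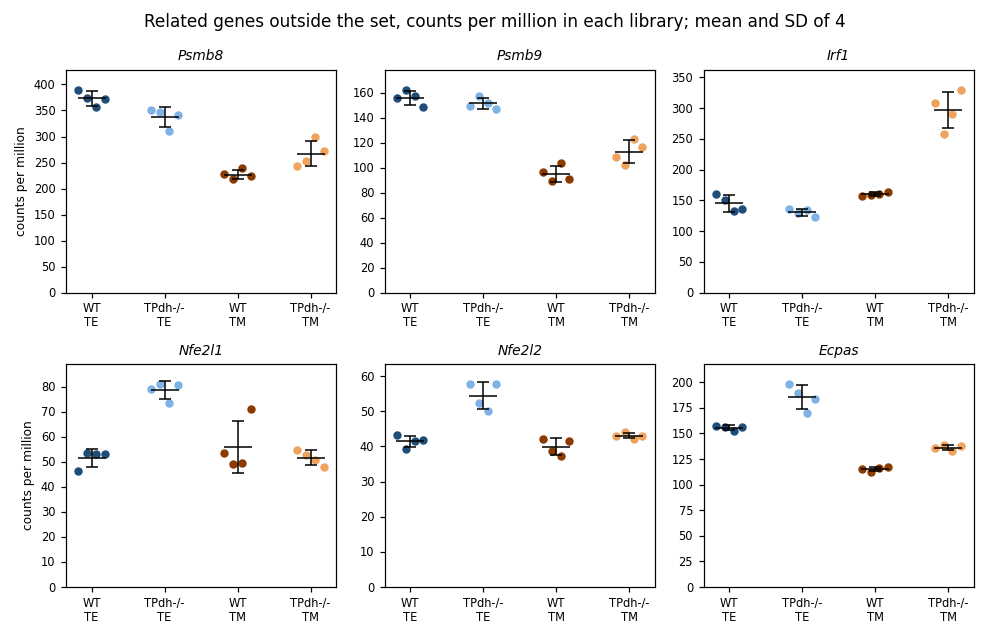
CPM (vertical axis, from 0) of 6 related genes outside the set in each of the 16 libraries by group; points are libraries, the black line is the mean and the bar the SD of 4. Irf1 is high in TPdh-/- TM (259 to 329), Nfe2l1 and Nfe2l2 are high in TPdh-/- TE, and Ecpas is higher in TPdh-/- than in WT in both cultures.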

How the data were processed

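Poly(A) RNA of 16 samples was sequenced on a NovaSeq after an unstranded TruSeq preparation. The submitters' processing notes name STAR 2.7.6a, RSEM 1.3.3, DESeq2 and the mouse build mm10 (GRCm38), while the annotation release is not given in the sources used here. The authors deposited 1 table per library with an RSEM expected count per gene, which is an estimate before normalization, and with TPM, which RSEM scales by effective transcript length and to a fixed total. Another deposited column, FPKM, was not used.

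Gene IDs were matched to symbols through a GENCODE M21 annotation of GRCm38 (55141 IDs, 99.5%, with 260 unmatched). The members and the gene lists were chosen with earlier results of these data known. Expected counts were rounded to whole numbers and genes were kept by filterByExpr (minimum count 10, minimum total 15), which left 15277. Counts were scaled with TMM factors and fitted with 1 mean per group over all 16 libraries by edgeR 4.0.16 (R 4.3.3), using the quasi-likelihood test with Benjamini-Hochberg adjustment over all genes tested and a threshold of 0.05. The standard error of a log2 fold change was derived from its test statistic, and intervals are 1.96 standard errors to each side, at 95% confidence. The 5 contrasts share groups, since each group enters 2 simple contrasts and the difference between them. CPM are rounded counts per 1e6 of the TMM-scaled library total. Depth was 53007257 to 73507566 counts, and the lowest tested member, Psmg4, held 117 to 270.

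Named members were chosen by a rule: all members with a catalytic, exchangeable, chaperone or activator role, with Psmc3ip, Psmd4, Psmd14, Psma8 and Psmb11, and up to 6 members per direction in each contrast by adjusted p. Psme2 and Psme2b are near copies between which reads may be split, and 12 members share exon bases with another gene (Psmc3, Psmd1, Psmd13, Psmd3, Psma4, Psma5, Psmg3, Psmb5, Psmb7, Psmc3ip, Psme1 and Psme2b), whose reads an unstranded library cannot fully part. Alternatives were RLE and upper-quartile factors, no low-count filter, DESeq2 1.42.0, limma 3.58.1 on log2(TPM + 1), a fit of only the groups compared, leaving out each library or the pair that stood apart, and, chosen after seeing the data, offsets corrected for gene length. The ratio of Psmb10 to Psmb7 was tested by exact permutation, 2-sided. The fit was tested on simulated data before use. Protein sequences were not used here, and the values of some listed genes are not reported here.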

Additional observations from a re-analysis of the deposited data

Results flagged for a closer look

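Of 182 groups of 4 libraries examined (each member in each group where at least 1 library held 10 counts, in TPM), 13 held a library far from the other 3 by Dixon's criterion, where chance gives about 1 in 20. WT TM library 12 was the far library for 4 members: Psmc5 at 112 TPM (others 100.5 to 102), Psmd13 at 117 (92.8 to 95.8), Psmd7 at 80.2 (64.4 to 65.3) and Psme1 at 290.3 (258 to 261). WT TE library 3 was low for Psmd11 at 57.7 TPM (64.4 to 65.1), Psma3 at 233 (256 to 258) and Psme2b at 54.7 (61.6 to 61.9). TPdh-/- TE library 8 was low for Psmb10 at 88.7 TPM (112 to 113) and read 0.41 TPM for Psma8 (0.09 to 0.12), and library 5 was high for Psmg1 at 32.7 TPM (26.8 to 27.7). TPdh-/- TM library 15 was high for Psmd4 at 121 TPM (110.2 to 112) and Psmb2 at 177 (148 to 151), and library 13 was low for Psma6 at 229 (254 to 256).

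The effect of genotype differed between cultures (TM value minus TE value), past the threshold, for 1 member, Psmb10 (0.53, edgeR adjusted p = 0.0286), and for the named related genes Irf1 (1.05, adjusted p = 3.06e-06), Tapbp (0.39, adjusted p = 0.00124), Psmb8 (0.38, adjusted p = 0.00653), Tap1 (0.34, adjusted p = 0.0364) and Psmb9 (0.29, adjusted p = 0.028). It was negative for Nfe2l1 (-0.72, adjusted p = 0.00129), Ubqln4 (-0.39, adjusted p = 0.0159), Nfe2l2 (-0.29, adjusted p = 0.0199) and Ubqln1 (-0.23, adjusted p = 0.0289).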

How the results depend on the processing

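Counts of members called lower in TM against TE stayed within 1.5 times of 37 in WT and 36 in TPdh-/- under every alternative. Members called higher in TPdh-/- TM numbered 3 with upper-quartile factors, 1 without the filter, 3 with DESeq2, 1 with limma on TPM and 3 with length-corrected offsets (0 in the report). Those called lower there numbered 0 with only the groups compared and 2 without libraries 12 and 5. In TE, 5 were higher with upper-quartile factors, 12 on TPM and 1 without libraries 12 and 5, while 2 were lower without the filter, 0 on TPM and 8 without the 2 libraries. In TM against TE, WT had 4 members higher on TPM, 2 without the 2 libraries and 2 with length-corrected offsets. TPdh-/- had 1 higher with upper-quartile factors, 4 on TPM, 1 with only the groups compared, 4 without the 2 libraries and 3 with length-corrected offsets. For the genotype effect in TM minus TE, 3 were positive with DESeq2, 0 on TPM and 2 without the 2 libraries, and 6 were negative on TPM. The cause was not tested. Leaving out 1 library at a time gave 0 to 3 higher and 1 to 2 lower for genotype in TM, 1 to 7 and 1 to 4 in TE, 1 to 2 and 35 to 37 for TM against TE in WT, 0 to 3 and 35 to 37 in TPdh-/-, and 0 to 3 and 0 to 2 for the difference. The ratio of Psmb10 to Psmb7 then differed by 0.0913 to 0.168 for genotype in TM, -0.0960 to -0.0431 in TE, -0.0435 to 0.0190 for TM against TE in WT and 0.142 to 0.219 in TPdh-/-. Among results of named genes called in the main fit or in the alternative, 2 changed sign, both with limma on TPM. These were Nfe2l2 in WT TM against TE, at 0.31 (adjusted p = 0.000554), and Psme4 there, at 0.063 (adjusted p = 0.309), and the cause was not tested. Changes of sign in values called in neither fit were not counted. No paired analysis was possible because the groups share no replicate numbers. Depth left Psma8 (0 to 11 counts) and Psmb11 (0 to 8) without a comparison.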
